A study of Homo sapiens with 6 samples.

Results

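Semaphorins, plexins, neuropilins, netrins, slits, their receptors and the collapsin response mediator proteins (CRMPs) were examined in DMS114 cells, a human line grown from a small cell lung tumour. Members were the rows of the gene count table whose symbol names a semaphorin, a plexin, a neuropilin, a netrin or netrin-G, a DCC, neogenin or UNC5 receptor, a slit, a ROBO receptor, a repulsive guidance molecule or a CRMP. This gave 56 of 36458 gene symbols, of which 31 were ligands, 20 were receptors and 5 were CRMPs. Cells received β-alanine at 2.5 mM for 48 h, or the same volume of vehicle, and each condition was sequenced in 3 libraries of polyadenylated RNA. Both groups are the same line, and the labels give no engineered genotype and no further agent for either. Whether the 3 libraries of a group stem from different cultures is not given, and p-values therefore rest on the spread between libraries, which may be technical. ROBO4, the remaining slit-receptor relative, was not analysed here.

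These proteins were first known for steering growing axons. Semaphorins are secreted or membrane-bound cues that bind plexins, with neuropilins as co-receptors for most class 3 members, and they collapse or turn the growth cone. Netrins attract through DCC and neogenin and repel through UNC5 receptors, slits repel through ROBO receptors, and CRMPs are cytosolic proteins that bind tubulin and act downstream of semaphorin 3A. In tumours the same cues are studied for cell migration, blood vessel growth and spread along nerves.

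Library totals ran from 14433801 counts in β-alanine library 1 to 32909568 in β-alanine library 3, with the controls in between. On the first principal component, which held 44.5% of the variance, the controls lay between 16.7 and 20.02, β-alanine libraries 2 and 3 at -23.5 and -23.6, and β-alanine library 1 at -9.13. β-alanine library 1 thus stood nearer to the controls, and it is named wherever a result rests on it. Libraries of 1 group differed by more than counting noise (chi-square per gene of 1.97 to 4.86), so none was taken for a second copy of another. Of the markers set for the line, synaptophysin (SYP) and chromogranin A and B (CHGA, CHGB) were expressed, whereas the neuroendocrine factor INSM1 and the tuft-cell factor POU2F3 were too low to test, at 0.164 to 0.278 CPM (counts per 1000000 counts of the scaled library total) in group means. The 10 small cell lung cancer markers, POU2F3 among them, summed to 183 to 191 CPM in controls and 231 to 264 CPM after β-alanine. The sum thus moved with treatment (CHGA, CHGB, SYP, UCHL1 and SCG3 rose and NCAM1 fell), and its part in the results below was not tested. Leukocyte, endothelial and Schwann or glial markers each summed to at most 0.509 CPM in any library, with TYROBP at 0. The fibroblast-type genes summed to 276 to 289 CPM in controls and 242 to 259 CPM after β-alanine, most of it decorin (DCN). DCN and COL1A1 fell, PDGFRB rose by 0.19 ± 0.07 (SE, log2; adjusted p = 0.0482, edgeR), and LUM gave no call. The 4 epithelial markers summed to 8.91 to 9.89 CPM in controls and 11.8 to 14.7 CPM after β-alanine, most of it keratin 18 (KRT18), which rose by 0.58 ± 0.11 (adjusted p = 0.000323, edgeR). The part of these lists in the results was not tested either.

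Treated and vehicle libraries were compared to see whether guidance cues and receptors changed with β-alanine. Of the 56 members, 47 had enough counts to be tested, 16 fell and none rose at an adjusted p under 0.05 (edgeR quasi-likelihood, Benjamini-Hochberg over all 17331 genes tested). Of the 8 members with a log2 change above 0, SEMA6C alone had a 95% interval that lay above 0. Among all genes tested, 13.8% fell and 14.1% rose, 27.9% in all, against 34.0% of the members, all of them lower. The falls were small. Their median size was 0.34 on the log2 scale, the largest was 0.53, and no member changed by as much as 1. The median log2 change of the 47 tested members was -0.16, against -0.0032 for all genes tested, with 8 members above 0 and 39 below. In bulk RNA, fewer expressing cells and less RNA per cell cannot be told apart.

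Ligands and receptors shifted in the same direction. Of 26 tested ligands, 6 fell (23.1%), with a median log2 change of -0.13, and of 16 tested receptors, 7 fell (43.8%), with a median of -0.15. Of the 5 CRMPs, 3 fell (60%), with a median of -0.29. Among all genes tested, 13.8% fell and 27.9% were called in either direction. The difference between the shares of ligands and receptors was not tested, since members are not replicates. The ligands that fell were SEMA3A, SEMA3C, SEMA5A, SEMA6B, NTNG2 and SLIT1, the receptors were PLXNA1, PLXNB2, PLXNC1, UNC5A, UNC5B, UNC5D and ROBO1, and the CRMPs were CRMP1, DPYSL3 and DPYSL4. The 3 treated libraries lay below all 3 controls for 18 members and above them for 1 (NRP1), or 40.4% of those tested. Over all genes tested, 19.2% were separated downward and 19.9% upward, 39.1% in all. The number of members that fell depended on single libraries. It was 20 without β-alanine library 1, 9 without β-alanine library 3 and 10 without control library 2. Over all genes, 2389 fell in the main test, and 3294, 1640 and 1488 in these settings in the same order. Receptors that fell numbered 4 without β-alanine library 2, 3 without β-alanine library 3 and 3 without control library 2, and ligands that fell numbered 9 without β-alanine library 1.

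**Figure D1:**
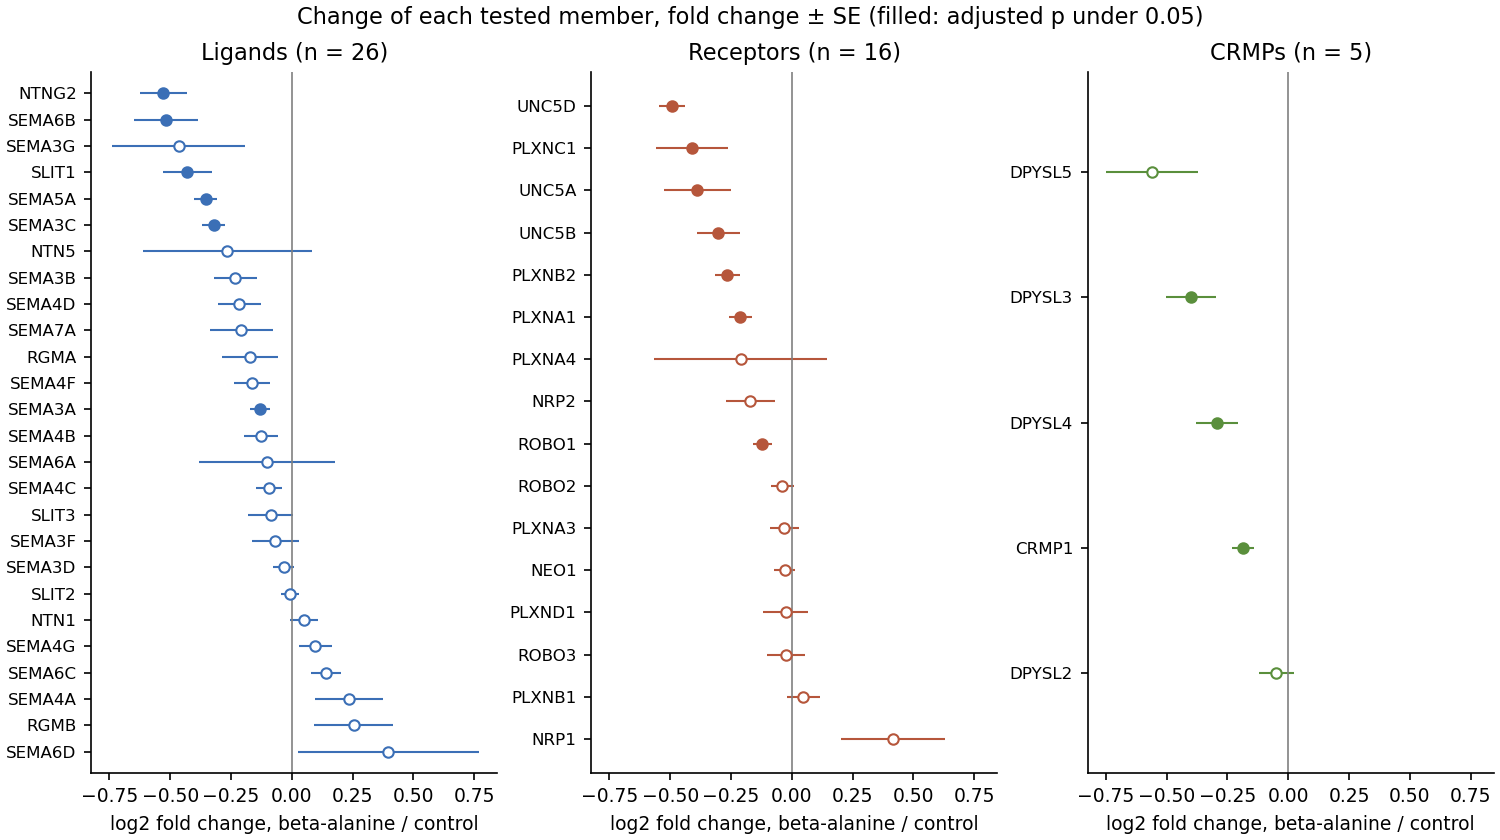
Log2 fold change of β-alanine over control with its standard error (x axis) for each of the 47 tested members (y axis), in separate panels for ligands, receptors and CRMPs, with filled points for an adjusted p under 0.05. All filled points lie left of 0, between -0.53 for NTNG2 and -0.12 for ROBO1.

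The size of the fall differed between the treated libraries. Relative to the mean of the controls, the 16 members that fell had a median shift of -0.13 in β-alanine library 1, -0.37 in library 2 and -0.38 in library 3 on the log2(CPM + 0.5) scale. β-alanine library 1 showed the smallest fall of the 3 for 14 of the 16 members (87.5%). The same held for 1667 of the 2389 genes that fell in the whole table (69.8%). The exceptions were NTNG2, which was lowest in β-alanine library 1, and ROBO1, which fell least in library 2. β-alanine library 1 was also the shallowest, and the part of depth in this was not tested.

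**Figure D2:**
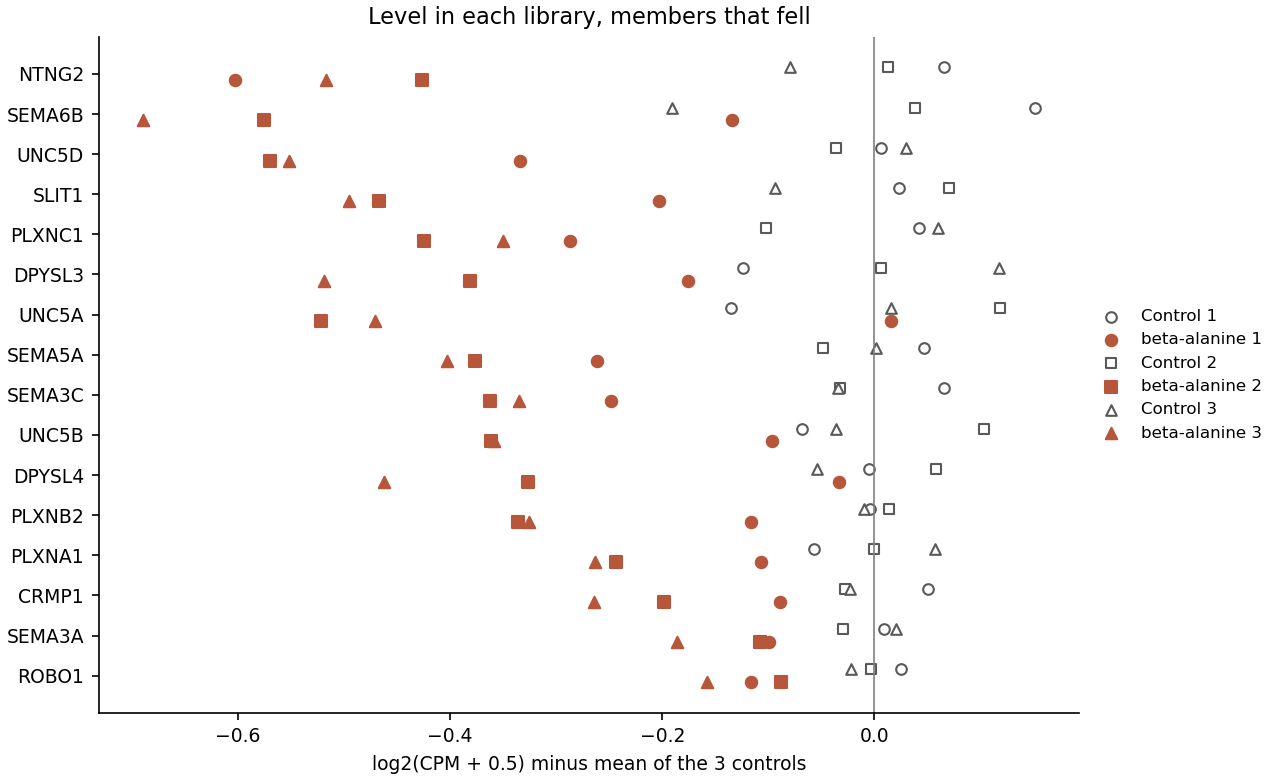
Level of the 16 members that fell in each of the 6 libraries, as log2(CPM + 0.5) minus the mean of the 3 controls (x axis), with open symbols for controls, filled symbols for β-alanine and circle, square and triangle for libraries 1, 2 and 3. β-alanine library 1 lies nearest to the controls for most members, at a median of -0.13 against -0.37 and -0.38 in libraries 2 and 3.

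Of the 16, 8 members kept their call under every alternative tried: the ligands SEMA3C, SEMA5A, NTNG2 and SLIT1, the receptors PLXNA1, PLXNB2 and UNC5D, and CRMP1. The sequence before 1 annotated start is given here for each of 5 of them, to show how these stretches differ in composition. Of the 5, 3 hold a match to the motif described next and 2 do not. RefSeq promoter windows on GRCh38.p14 (250 bases before to 50 bases after a start) were found for 46 of the 56 members, and for 11 of the 16 that fell. The 250 bases before the start are printed 5′ to 3′ on the strand of the gene. Capitals mark a match to GCGNGGGCG, the letters bound by EGR factors, on either strand. The windows lie at chr5:9546076-9546325 (minus strand), chr7:80919052-80919301 (minus strand), chr3:126982865-126983114 (plus strand), chr10:97185960-97186209 (minus strand) and chr22:50301670-50301919 (minus strand). SEMA3C has 2 windows, and the one shown was chosen because it holds the match. The window shown lies inside the gene (80742538 to 80922389). The other, at chr7:80922340-80922639, is at the outermost annotated start and has 36.0% G and C over 300 bases and no match.
SEMA5A: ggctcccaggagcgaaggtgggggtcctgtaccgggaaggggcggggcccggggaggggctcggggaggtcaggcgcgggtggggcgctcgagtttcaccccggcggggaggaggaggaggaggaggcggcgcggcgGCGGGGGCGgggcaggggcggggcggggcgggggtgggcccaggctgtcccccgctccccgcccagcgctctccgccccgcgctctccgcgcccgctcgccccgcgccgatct
SEMA3C: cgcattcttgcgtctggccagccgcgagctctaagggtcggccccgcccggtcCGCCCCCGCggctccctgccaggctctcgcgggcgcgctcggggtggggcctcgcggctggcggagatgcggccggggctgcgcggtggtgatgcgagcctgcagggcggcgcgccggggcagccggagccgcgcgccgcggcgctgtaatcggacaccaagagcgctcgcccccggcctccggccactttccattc
PLXNA1: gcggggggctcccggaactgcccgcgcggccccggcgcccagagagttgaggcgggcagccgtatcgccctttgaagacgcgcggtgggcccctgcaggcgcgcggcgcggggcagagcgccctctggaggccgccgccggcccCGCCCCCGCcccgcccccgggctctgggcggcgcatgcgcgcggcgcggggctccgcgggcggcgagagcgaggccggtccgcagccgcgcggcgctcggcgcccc
SLIT1: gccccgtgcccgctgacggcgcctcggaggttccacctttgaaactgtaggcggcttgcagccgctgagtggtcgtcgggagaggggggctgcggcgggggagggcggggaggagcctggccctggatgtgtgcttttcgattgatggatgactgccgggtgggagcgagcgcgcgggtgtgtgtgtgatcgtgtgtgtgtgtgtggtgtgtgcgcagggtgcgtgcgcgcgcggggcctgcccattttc
PLXNB2: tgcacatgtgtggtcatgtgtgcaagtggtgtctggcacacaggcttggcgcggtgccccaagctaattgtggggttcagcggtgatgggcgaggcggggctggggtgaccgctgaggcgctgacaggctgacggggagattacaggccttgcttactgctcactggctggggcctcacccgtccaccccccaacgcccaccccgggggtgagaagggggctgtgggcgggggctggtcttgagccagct
The windows shown for SEMA5A, SEMA3C and PLXNA1 are very rich in G and C, at 82.0%, 77.6% and 84.4%, with 33, 39 and 46 CG pairs. Those of SLIT1 and PLXNB2 hold 68.4% and 66.4%, with 25 and 12 CG pairs, and no capitals. PLXNB2 has 1 window, which lies inside the gene (50274979 to 50307646), so its outermost annotated start is not covered. The match begins 113 bases before the start in SEMA5A, 197 in SEMA3C and 106 in PLXNA1. Over the full 300 bases, 6 of the 11 genes that fell and have a window held the EGR letters (54.5%: SEMA5A, SEMA3C, PLXNA1, CRMP1, DPYSL3 and DPYSL4). Among tested members without a call the count was 9 of 27 (33.3%), among all tested genes with a window it was 19.8%, and among all genes that fell it was 22.1% (388 of 1753). Counted by window, the letters were in 6 of 18 windows of members that fell (33.3%), against 16.1% of the windows of all genes that fell. CRMP1, with 4 windows, and DPYSL3 and SEMA3C, with 2 each, held the letters in 1 window. For each of these genes that window lies inside the gene, and the window at the outermost annotated start holds no match. In SEMA5A, PLXNA1 and DPYSL4 the window with the match is the one at the outermost start. Of the other motifs, TGACGTCA (a cAMP response element) and AAAGGTCA (bound by NR4A receptors) were in 0 of 11 members that fell. TGANTCA (AP-1) and CACGTG (an E-box) were in 1 of 11 each (9.09%). Among all tested genes the shares were 3.70%, 1.09%, 6.50% and 12.5% in the same order. With 11 genes, these counts are too small to compare with such shares. Motifs were searched on both strands, GC-rich windows match GC-rich motifs more often, and the shares are descriptions with no test.

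Secreted class 3 semaphorins were among the most abundant ligands of the line. SEMA3A, the founding growth-cone collapsing factor, stood at 155, 151 and 157 CPM in controls 1, 2 and 3, and at 144, 143 and 136 CPM in β-alanine libraries 1, 2 and 3. All 3 treated libraries lay below the controls, by a narrow margin. The log2 change was -0.13 ± 0.04 (SE; adjusted p = 0.0187, edgeR). SEMA3C, which signals through neuropilins and plexin D1, stood at 93.6, 87.4 and 87.3 CPM in controls and at 75.2, 69.4 and 70.7 CPM after β-alanine. The groups were clearly apart, with a log2 change of -0.32 ± 0.05 (adjusted p = 3.86e-05, edgeR). SEMA3D, a close relative, gave no call. It was at 119, 115 and 122 CPM in controls and at 118, 119 and 112 CPM after β-alanine. Its groups overlapped, and the 95% interval of its log2 change ran from -0.12 to 0.06. SEMA3C, SEMA3E, SEMA3A and SEMA3D lie in this order on chromosome 7 (80742538 to 80922389, 83363238 to 83649139, 83955777 to 84492725 and 84995553 to 85250243, GRCh38.p14), and differences between them were not tested. SEMA3A lost its call without β-alanine library 3 (adjusted p = 0.117, edgeR), control library 1 (0.0653) or control library 3 (0.0700).

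The other class 3 members were lower in abundance. SEMA3B, on chromosome 3 from 50260226 to 50277546, was at 13.0, 13.8 and 13.0 CPM in controls and 11.6, 10.8 and 11.5 CPM after β-alanine. Its libraries were separated, but the adjusted p was 0.0535 (edgeR), and it passed with limma-voom (0.0464) and without β-alanine library 1 (0.0271). SEMA3F, the neuropilin-2 ligand nearby, averaged 9.93 ± 0.50 CPM in controls and 9.50 ± 0.22 CPM after β-alanine (SD, n = 3 per group), with overlapping groups. SEMA3G averaged 1.27 ± 0.18 and 0.97 ± 0.32 CPM, with a 95% interval of -1.03 to 0.10 on the log2 scale, too wide to show a change of this size. SEMA3E had 3 to 16 counts per library and was not tested.

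Of the membrane-bound semaphorins, 12 of 13 were tested and 2 fell (16.7%, against 13.8% of all genes tested). SEMA5A, a transmembrane semaphorin with thrombospondin repeats, was at 103, 96.1 and 99.4 CPM in controls and at 82.8, 76.4 and 75.0 CPM after β-alanine. It had the smallest p of all ligands, with groups far apart and a log2 change of -0.35 ± 0.05 (adjusted p = 1.3e-05, edgeR). An annotated gene on the opposite strand, AC021088.1, overlaps an exon of SEMA5A, and since the use of strand was not stated, reads of both cannot be told apart. SEMA6B, a class 6 ligand of A-type plexins, was at 17.8, 16.5 and 14.0 CPM in controls and at 14.5, 10.6 and 9.74 CPM after β-alanine. β-alanine library 1 lay above control 3, so the groups overlapped, and the log2 change was -0.52 ± 0.13 (adjusted p = 0.00940, edgeR). SEMA6B did not pass when β-alanine library 2 was left out (adjusted p = 0.0589, edgeR), nor without control library 2 (0.0558).

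The other 10 tested membrane semaphorins gave no call. The class 4 members bind B-type plexins. SEMA4C, the most abundant of them, averaged 71.9 ± 4.57 CPM in controls and 67.6 ± 3.09 CPM after β-alanine (SD, n = 3 per group). SEMA4D, the ligand of plexin B1, averaged 15.8 ± 1.22 and 13.8 ± 1.02 CPM (adjusted p = 0.0712, edgeR). SEMA4B averaged 26.3 and 24.2 CPM and SEMA4F 20.3 and 18.1 CPM, and SEMA7A, the lipid-anchored ligand of plexin C1, averaged 5.39 and 4.71 CPM. For SEMA4B, SEMA4F and SEMA7A all treated libraries lay below the controls without a call. A few pointed upward: SEMA4A by 0.24 ± 0.14, SEMA4G by 0.10 ± 0.07 and SEMA6C by 0.14 ± 0.06 (SE, log2). SEMA6C was at 33.6, 37.2 and 34.5 CPM in controls and 36.1, 39.0 and 40.3 CPM after β-alanine, with overlapping groups and an adjusted p of 0.0996 (edgeR). Without β-alanine library 1, SEMA6C passed as the only member to rise (adjusted p = 0.0173), and SEMA4C (0.0374) and SEMA4D (0.0121) passed as falls. SEMA6A and SEMA6D averaged 1.21 and 0.49 CPM in controls, with intervals of -0.68 to 0.48 and -0.37 to 1.17 on the log2 scale, and SEMA5B had 1 to 9 counts per library and was not tested.

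Plexins, the receptors of semaphorins, fell in 3 of 7 tested cases (42.9%, against 13.8% of all genes tested). PLXNB2, the most abundant plexin for its exon length, was at 118, 120 and 118 CPM in controls and at 109, 93.7 and 94.4 CPM after β-alanine. The controls were close together, and the log2 change was -0.27 ± 0.05 (adjusted p = 0.000528, edgeR). PLXNA1, the signalling partner of neuropilins for class 3 semaphorins, was at 111, 115 and 120 CPM in controls and at 107, 97.0 and 95.7 CPM after β-alanine. Its log2 change was -0.21 ± 0.05 (adjusted p = 0.00217, edgeR). PLXNC1, the receptor of SEMA7A, was at 4.33, 3.87 and 4.39 CPM in controls and at 3.34, 2.99 and 3.18 CPM after β-alanine, a log2 change of -0.41 ± 0.15 (adjusted p = 0.0417, edgeR). All 3 plexins had every treated library below every control.

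PLXNC1 rested on few counts, 48 to 106 per library, and lost its call under 9 of the 16 alternatives, more than any other member that fell. It did not pass when β-alanine library 2 (adjusted p = 0.150, edgeR) or 3 (0.101) was left out, and without control library 1 (0.111), 2 (0.0596) or 3 (0.117). PLXNC1 shares exonic positions with CEP83 on the opposite strand, and reads of both cannot be told apart. CEP83 was at 20.2 to 24.7 CPM in controls and 25.2 to 26.04 CPM after β-alanine. It rose by 0.23 ± 0.08 (SE, log2; adjusted p = 0.0282, edgeR), and its part in the PLXNC1 counts was not tested. Other abundant plexins gave no call. PLXNA3 averaged 37.7 ± 1.65 and 36.8 ± 1.34 CPM, PLXNB1 averaged 25.1 ± 1.11 and 25.9 ± 0.74 CPM, and PLXND1 averaged 11.0 ± 0.11 and 10.9 ± 0.49 CPM in controls and after β-alanine (SD, n = 3 per group). Their 95% intervals on the log2 scale were -0.15 to 0.09, -0.09 to 0.19 and -0.22 to 0.17. PLXNA4 was below 1.2 CPM in every library, and PLXNA2 and PLXNB3, the latter a receptor of SEMA5A, had at most 18 and 7 counts and were not tested.

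Neuropilins were scarce. NRP1, the binding subunit for SEMA3A, was at 1.35, 1.59 and 1.33 CPM in controls and at 1.60, 1.82 and 2.16 CPM after β-alanine. It was the only tested member with all treated libraries above all controls, by a small margin, and its log2 change of 0.42 ± 0.21 did not pass (adjusted p = 0.156, edgeR). NRP2, which prefers SEMA3C and SEMA3F, averaged 10.2 ± 0.34 CPM in controls and 9.15 ± 0.84 CPM after β-alanine (SD, n = 3 per group), with overlapping groups. Per exon length, NRP1 stood at 0.124 and NRP2 at 0.733 CPM per kb in controls, against 10.5 for PLXNA1 and 16.5 for SEMA3A.

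Of the 4 netrin receptors tested, the 3 UNC5 genes fell (75%, against 13.8% of all genes tested) and neogenin gave no call. DCC, the classical receptor for netrin attraction, had 0 counts in all 6 libraries, which allows a level of up to 0.0222 CPM over the libraries together, counting error only. Neogenin (NEO1), the relative of DCC that binds netrins and repulsive guidance molecules, was at 144, 131 and 133 CPM in controls and at 133, 135 and 131 CPM after β-alanine. Its groups overlapped, and the 95% interval of its log2 change was -0.12 to 0.06. NTN1, which encodes netrin-1, was at 38.7, 38.8 and 37.1 CPM in controls and at 37.4, 41.6 and 39.1 CPM after β-alanine, with an interval of -0.07 to 0.17.

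All 3 tested UNC5 receptors fell, against 13.8% of all genes tested. UNC5D was at 134, 130 and 136 CPM in controls and at 106, 89.5 and 90.7 CPM after β-alanine. The groups were far apart, with a log2 change of -0.49 ± 0.05 and the smallest p of any member (adjusted p = 1.46e-06, edgeR). UNC5B was at 17.2, 19.4 and 17.6 CPM in controls and at 16.8, 13.9 and 14.0 CPM after β-alanine, a log2 change of -0.30 ± 0.09 (adjusted p = 0.0135, edgeR). UNC5A was at 6.97, 8.41 and 7.80 CPM in controls and at 7.80, 5.22 and 5.42 CPM after β-alanine. β-alanine library 1 lay within its controls, and the log2 change was -0.39 ± 0.14 (adjusted p = 0.0393, edgeR). UNC5C had 1 to 9 counts per library and was not tested.

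The calls of the less abundant UNC5 genes depended on single libraries. UNC5B lost its call without β-alanine library 2 (adjusted p = 0.0877, edgeR), β-alanine library 3 (0.0748) or control library 2 (0.111). UNC5A lost it without β-alanine library 2 (adjusted p = 0.213, edgeR), β-alanine library 3 (0.172), control library 2 (0.195) or control library 3 (0.0954). HK3, which overlaps UNC5A on the opposite strand, was at or near 0, with at most 0.153 CPM in any library. Per exon length, the log2 ratio of NTN1 to UNC5D was -1.04 ± 0.07 in controls and -0.51 ± 0.20 after β-alanine (SD, n = 3 per group), while that of NTN1 to NEO1 was -1.48 ± 0.07 and -1.41 ± 0.07. These ratios are descriptions of the same counts and were not tested.

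The remaining netrin-type ligands and repulsive guidance molecules were low. NTNG2, a lipid-anchored netrin-G that binds LRRC4 and not DCC or UNC5 receptors, was at 13.1, 12.6 and 11.8 CPM in controls and at 8.08, 9.19 and 8.60 CPM after β-alanine. This was the largest fall among the calls, with groups far apart and a log2 change of -0.53 ± 0.10 (adjusted p = 0.000316, edgeR). LRRC4, its partner, averaged 5.35 ± 0.37 CPM in controls and 4.82 ± 0.62 CPM after β-alanine (SD, n = 3 per group) and gave no call. RGMA and RGMB, ligands of neogenin, averaged 7.55 and 3.25 CPM in controls and 6.75 and 3.79 CPM after β-alanine, with 95% intervals of -0.41 to 0.06 and -0.08 to 0.59 on the log2 scale. NTN5 was under 1.1 CPM in every library, and NTN3, NTN4 and NTNG1 had at most 9, 2 and 2 counts and were not tested.

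Of the slits and ROBO receptors, SLIT1 and ROBO1 fell (33.3% of each list, against 13.8% of all genes tested). SLIT2, the most abundant ligand for its exon length, was at 218, 213 and 224 CPM in controls and at 215, 216 and 219 CPM after β-alanine. Its log2 change was -0.01 ± 0.04, with a 95% interval of -0.09 to 0.07. SLIT1 was at 12.7, 13.1 and 11.7 CPM in controls and at 10.8, 8.90 and 8.72 CPM after β-alanine, separated groups with a log2 change of -0.43 ± 0.10 (adjusted p = 0.00300, edgeR). The read-through gene ARHGAP19-SLIT1, whose reads overlap those of SLIT1, had at most 0.216 CPM in any library. How reads shared by both were counted is not given, so this value does not show the part of the read-through gene. SLIT3 averaged 14.7 ± 0.85 CPM in controls and 14.0 ± 1.46 CPM after β-alanine (SD, n = 3 per group), with overlapping groups.

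ROBO1, the main slit receptor here, was at 178, 174 and 172 CPM in controls and at 161, 164 and 156 CPM after β-alanine. The groups did not overlap, though the log2 change of -0.12 ± 0.04 was the smallest among the calls (adjusted p = 0.0245, edgeR). ROBO1 did not pass when β-alanine library 3 was left out (adjusted p = 0.117, edgeR), nor without control library 1 (0.102) or control library 2 (0.0765). ROBO2 was at 82.8, 80.6 and 80.7 CPM in controls and at 74.9, 81.4 and 80.5 CPM after β-alanine, with an interval of -0.14 to 0.06. ROBO3, which governs midline crossing of axons, averaged 17.2 ± 0.79 and 16.9 ± 0.53 CPM (SD, n = 3 per group), with an interval of -0.18 to 0.14. Per exon length, the log2 ratio of SLIT2 to ROBO1 was 0.49 ± 0.05 in controls and 0.60 ± 0.05 after β-alanine, and that of SLIT2 to ROBO2 was 2.20 ± 0.04 and 2.24 ± 0.06 (SD, n = 3 per group).

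**Figure D3:**
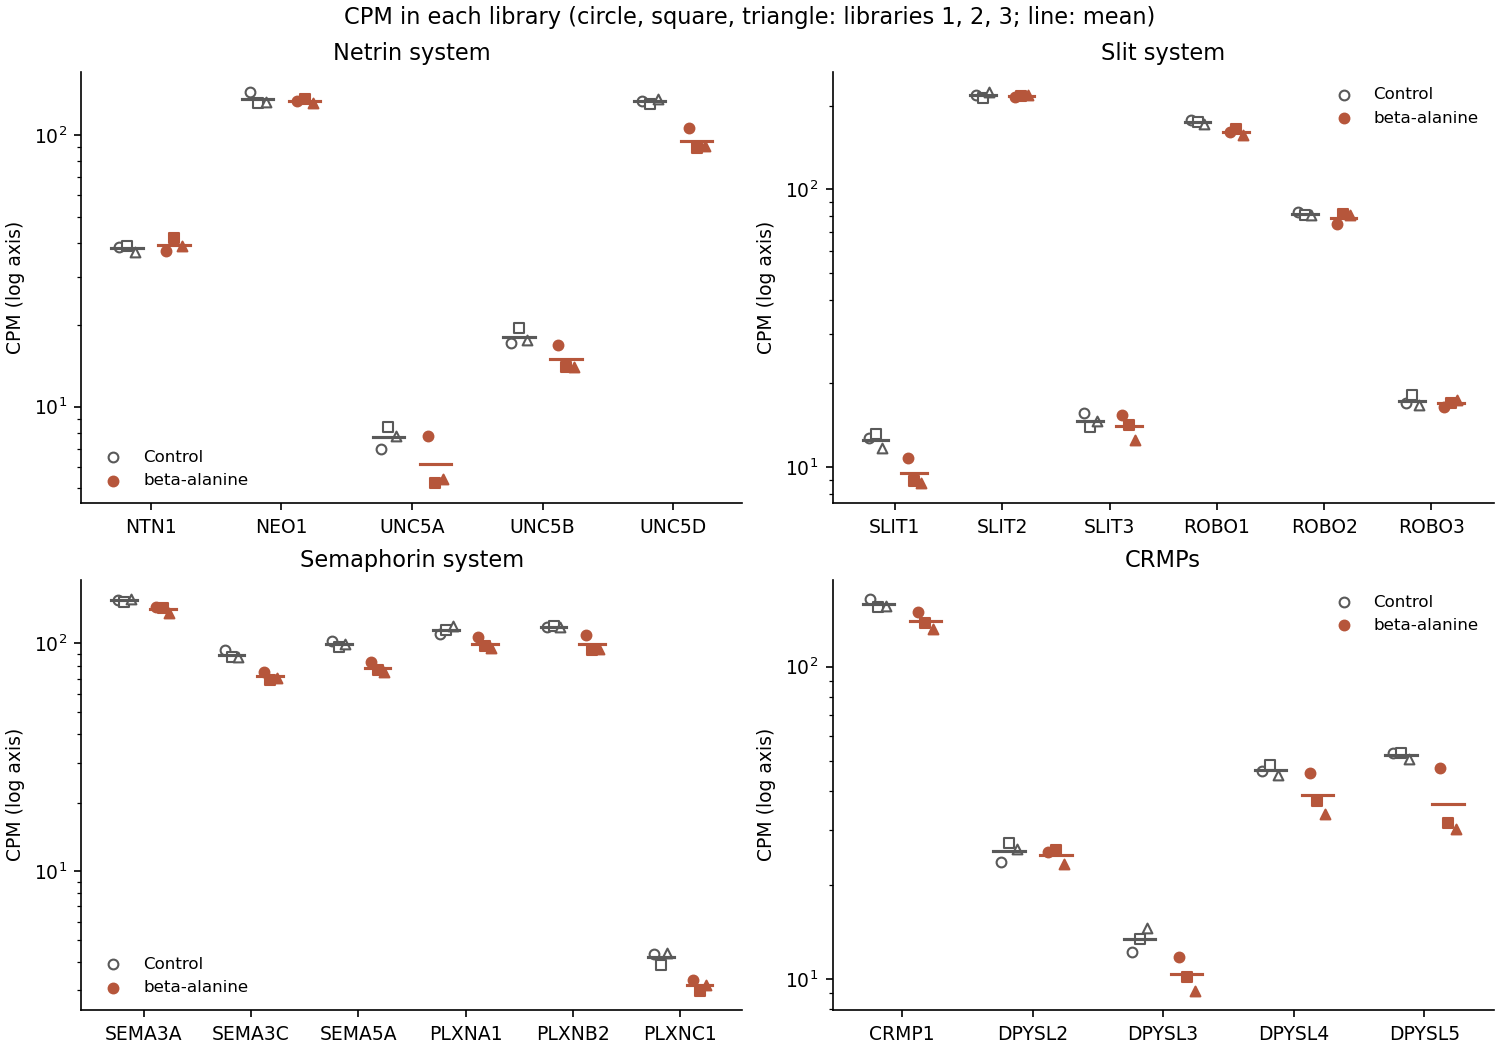
CPM on a log axis (y axis) in each of the 6 libraries for members of the netrin, slit and semaphorin systems and the CRMPs (x axis), with open symbols for controls, filled symbols for β-alanine and a line at each group mean. UNC5D falls from a mean of 133 to 95.3 CPM while NEO1, NTN1 and SLIT2 overlap between groups, and β-alanine library 1 (circle) of DPYSL5 lies apart from libraries 2 and 3.

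Of the CRMPs, CRMP1, DPYSL3 and DPYSL4 fell (60%, against 13.8% of all genes tested). CRMP1 was at 164, 156 and 156 CPM in controls and at 149, 138 and 132 CPM after β-alanine, a log2 change of -0.19 ± 0.05 (adjusted p = 0.00370, edgeR). DPYSL3 (CRMP4) was at 12.2, 13.4 and 14.5 CPM in controls and at 11.8, 10.1 and 9.17 CPM after β-alanine, a log2 change of -0.40 ± 0.10 (adjusted p = 0.00559, edgeR). DPYSL4 (CRMP3) was at 46.4, 48.5 and 44.8 CPM in controls and at 45.5, 37.0 and 33.7 CPM after β-alanine, a log2 change of -0.29 ± 0.09 (adjusted p = 0.0235, edgeR). For DPYSL4, β-alanine library 1 lay among the controls, and for DPYSL3 it lay just below them. DPYSL3 lost its call without β-alanine library 3 (adjusted p = 0.0527, edgeR). DPYSL4 lost it without β-alanine library 2 (adjusted p = 0.106, edgeR) or 3 (0.0720), or without control library 1 (0.0762) or 2 (0.109). EVC, whose exons overlap CRMP1 on the opposite strand, was also lower, at 53.5 to 56.1 CPM in controls and 40.2 to 45.2 CPM after β-alanine, and its part in the CRMP1 counts was not tested.

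DPYSL5 (CRMP5) had the largest change of any tested member without a call, and is singled out here after its values were seen. It was at 52.8, 52.9 and 50.5 CPM in controls and at 47.5, 31.7 and 30.1 CPM in β-alanine libraries 1, 2 and 3. Every treated library lay below the controls, but library 1 stood near them and libraries 2 and 3 far below. The log2 change of -0.56 ± 0.19 did not pass (adjusted p = 0.0961, edgeR). DPYSL5 passed without β-alanine library 1 (adjusted p = 4.66e-15, edgeR), without robust shrinkage (0.00103), with the replicate block (0.00638) and with limma-voom (0.000234), and its adjusted p lay between 0.0551 and 0.251 under the rest. AC013472.2 overlaps an exon of DPYSL5 on the opposite strand, and reads of both cannot be told apart. DPYSL2 (CRMP2), the founding member, gave no call. It was at 23.6, 27.2 and 26.1 CPM in controls and at 25.4, 25.9 and 23.4 CPM after β-alanine, with overlapping groups and an interval of -0.20 to 0.10.

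Levels of different genes were compared per kilobase of annotated exon (GENCODE 29, all isoforms merged). In controls CRMP1 led at 27.3 ± 0.85 CPM per kb, followed by SLIT2 at 22.5 ± 0.59 (SD, n = 3). NEO1 at 16.7 ± 0.88, SEMA3A at 16.5 ± 0.29, PLXNB2 at 16.3 ± 0.14 and ROBO1 at 16.05 ± 0.26 came next and did not differ beyond their spread from one neighbour to the next. SEMA3D (14.7 ± 0.44), DPYSL4 (14.7 ± 0.58) and SEMA3C (14.3 ± 0.57) also overlapped, ahead of UNC5D at 12.3 ± 0.28 and SEMA4C at 11.7 ± 0.74. After β-alanine UNC5D stood at 8.81 ± 0.83, below SEMA4C at 11.0 ± 0.50, and did not differ beyond the spread from PLXNA1 at 9.12 ± 0.55. The longest merged exon sets, such as that of ROBO2 at 16.7 kb, may hold rarely used exons, which would lower a gene's value on this scale. The use of exons was not measured.

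**Figure D4:**
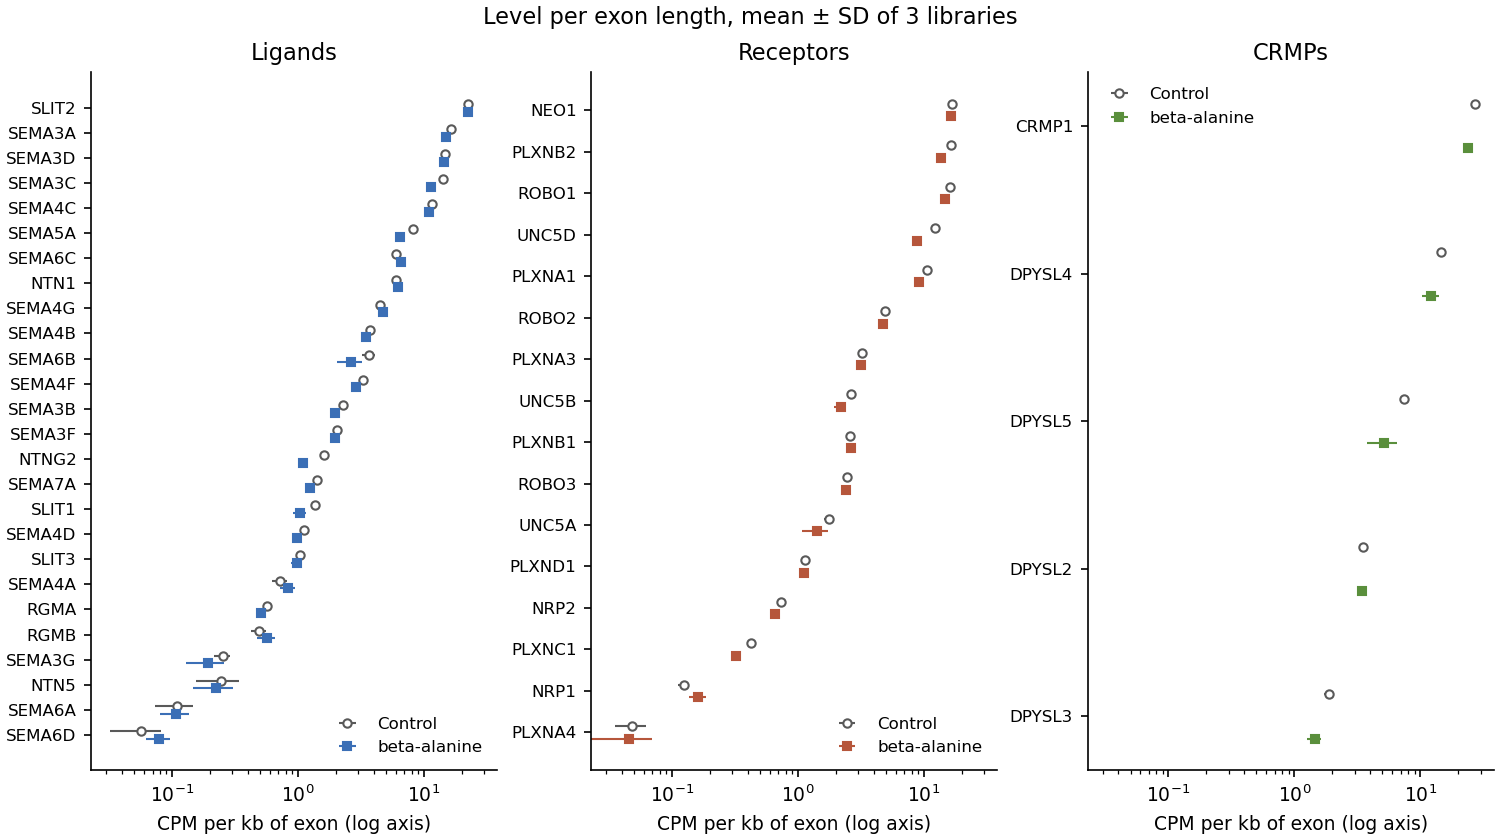
Mean level per kilobase of exon on a log axis (x axis, CPM per kb) with the SD of 3 libraries, for each tested ligand, receptor and CRMP (y axis), open circles for controls and filled squares for β-alanine. Tested members span 0.0486 (PLXNA4) to 27.3 (CRMP1) CPM per kb in controls, a range far wider than any change with treatment.

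Other genes of these pathways changed in both directions. Of 21 co-receptors and further ligands, 16 were tested, 6 fell and 1 rose. ITGA1, the integrin chain α1, which pairs with β1 as a SEMA7A receptor, changed by -0.31 ± 0.04 (SE, log2), while its partner ITGB1 rose by 0.18 ± 0.04, from 393 to 446 CPM. ERBB2, a kinase that associates with B-type plexins, changed by -0.24 ± 0.05, and BOC, a DCC-like guidance receptor, by -0.55 ± 0.14. Of 42 intracellular effectors, 41 were tested, 8 fell and 3 rose. MAGED1, which binds UNC5A, changed by -0.22 ± 0.04, the actin regulator VASP by -0.24 ± 0.05 and FARP1, a partner of A-type plexins, by -0.26 ± 0.07, while SRGAP1, which acts below ROBO receptors, rose by 0.28 ± 0.07. The shares called in these lists, 43.8% and 26.8%, compare with 27.9% of all genes tested.

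Of the kinases that phosphorylate CRMPs, listed together with an activator of CDK5, some rose. Of 9 listed, 8 were tested, 4 rose and none fell, a share of 50% against 14.1% of all genes tested that rose and 27.9% called in either direction. FYN rose by 0.24 ± 0.07, CDK5 by 0.19 ± 0.06, ROCK1 by 0.14 ± 0.04 and GSK3B by 0.11 ± 0.04 (SE, log2; adjusted p between 0.0109 and 0.0454, edgeR), each with all treated libraries above all controls. In absolute level FYN went from 21.1 ± 0.30 to 24.9 ± 0.93 CPM and CDK5 from 33.6 ± 1.02 to 38.3 ± 1.87 CPM (SD, n = 3 per group). The count of kinases that rose was 1 without β-alanine library 2, and likewise 1 without β-alanine library 3, control library 1 or control library 2. The list of proteases that cut guidance proteins also held subunits of such enzymes that do not cut themselves. Of its 10 genes, all were tested, 2 rose and 2 fell (40% against 27.9% of all genes tested). The shedding enzyme ADAM17 rose by 0.16 ± 0.05, while the proprotein convertases PCSK5 and PCSK6 changed by -1.05 ± 0.24 and -0.32 ± 0.09. PCSK5 was low, at 1.90 ± 0.21 CPM in controls and 0.88 ± 0.16 CPM after β-alanine (SD, n = 3 per group). Over the 4 lists together, 10 genes rose and 16 fell of 75 tested, or 34.7% against 27.9% of all genes tested. These counts were 4 and 8 without β-alanine library 2 and 6 and 9 without β-alanine library 3. They were 6 and 9 without control library 1 and 4 and 9 without control library 2. Over all genes, 2441 rose and 2389 fell in the main test, and 1501 and 1473 without β-alanine library 2. All genes called numbered 1652 and 1640 without β-alanine library 3, 1891 and 1828 without control library 1, and 1570 and 1488 without control library 2.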

How the data were processed

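Polyadenylated RNA of DMS114 cells was measured in 3 β-alanine and 3 vehicle libraries, grouped and numbered by their titles. The authors deposited 1 table of raw counts, with a row for each gene symbol. The submitters' processing notes name STAR 2.7.3a, featureCounts 2.0.1, Trimmomatic 0.39, bcl2fastq and DESeq2 and the build GRCh38. Settings, annotation and strandedness are not given there or in the labels. Without strand, overlapping genes on opposite strands cannot be told apart.

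Genes were filtered with filterByExpr, which kept 17331, and scaled by TMM. The test was the edgeR 4.0.16 quasi-likelihood F-test (R 4.3.3) with robust shrinkage, fitted to the 6 libraries, with a Benjamini-Hochberg adjusted p under 0.05. CPM uses TMM-scaled totals, and standard errors and 95% intervals come from the same fit. The script was tested on simulated data, where it made 168 calls, 17 of them false. It recovered 53.1% of 1.25-fold, 63.3% of 1.5-fold and 92% of 2-fold changes, so small changes are often missed. Per-library shifts are on the log2(CPM + 0.5) scale. Exon lengths and overlaps came from GENCODE 29, and positions and promoters from RefSeq (GRCh38.p14).

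The members and lists were chosen with earlier results of these data known. Every member that passed is named with all its values. Members without a call are named where they lead their list or bind a called member, and otherwise after their values were seen, and up to 4 pathway genes per list were named by p. A few genes of the marker and pathway lists are not reported here by name. Depth ran from 14433801 to 32909568 counts per library. Alternatives were other scaling, filters and thresholds, DESeq2 1.42.0, limma-voom (limma 3.58.1), no robust shrinkage, a replicate block, thinning to the smallest library and leaving out each library. Those for pathway genes were added after seeing the data. Figures were drawn with matplotlib 3.10.9.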

Additional observations from a re-analysis of the deposited data

How the results depend on the processing

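Of the 16 members that fell, 8 kept their call under all 16 alternatives, and no called member changed direction. The members that fell numbered 10 at a threshold of 0.01 and 9 to 20 when leaving out 1 library, and those that rose 0 to 1, the 1 being SEMA6C without β-alanine library 1. Ligands that fell numbered 5 to 9 and ligands that rose 0 to 1 when leaving out 1 library. Receptors that fell numbered 3 at the threshold of 0.01 and 3 to 7 when leaving out 1 library. At 0.01, pathway genes that rose and fell numbered 4 and 8, and CRMP kinases that rose 0. Thinning to the smallest library gave 6 pathway genes and 2 CRMP kinases that rose, and the DESeq2 Wald test gave 2 such kinases. When leaving out 1 library, pathway genes that rose ranged from 4 to 14, those that fell from 8 to 20, and CRMP kinases that rose from 1 to 4. Over all genes, 1454 rose and 1391 fell at 0.01, against 2441 and 2389 in the main test. When leaving out 1 library, all genes that rose ranged from 1501 to 3204, and those that fell from 1473 to 3294. The cause of these moves was not tested.

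Among members without a call, log2 changes that changed sign did so as follows. With library totals SLIT2 was at 0.0080, and with thinning PLXND1 was at 0.015 and SLIT3 at 0.025. When leaving out 1 library, the log2 change ranged from -0.057 to 0.015 for NEO1, from -0.48 to 0.10 for NTN5, from -0.068 to 0.0051 for PLXNA3, from -0.53 to 0.025 for PLXNA4, from -0.051 to 0.016 for ROBO3, from -0.31 to 0.15 for SEMA6A and from -0.028 to 0.0068 for SLIT2. PLXNC1 also lost its call with library totals (adjusted p = 0.0525, edgeR), without the low-count filter (0.0885) and with DESeq2 (0.151), UNC5A with DESeq2 (0.116) and thinning (0.101), UNC5B with thinning (0.0582) and ROBO1 without the low-count filter (0.0553). SEMA4B passed with thinning (adjusted p = 0.0490, edgeR).

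For same-numbered libraries, the correlations of their deviations from the group means were 0.05, 0.0037 and 0.07. Those of unlike-numbered libraries ran from -0.072 to 0.0080. All were small, and whether the numbers stand for pairs is not given. Over all genes, 2564 rose and 2608 fell with the replicate block, against 2441 and 2389 in the main test. With the replicate block, 17 members fell, with 16 of the 16 calls kept and DPYSL5 added, and CRMP kinases that rose stayed at 4, pathway genes that rose and fell at 11 and 16. Members under about 1 CPM had intervals too wide to show changes of the size seen here.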
